A study of Mus musculus with 60 samples.

Results

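Acetylation of histone H3 at lysine 9 (H3K9ac) was compared between mouse dorsal root ganglia taken after axotomy of the sciatic nerve (SNA) and after a sham operation on that nerve (Sham). The comparison rests on 1 deposited peak list per surgery, each made from 2 pooled ChIP samples, and all peaks of both lists were used. The SNA list held 74652 peaks and the Sham list 50332, together 124984 of the 265298 H3K9ac peaks of the series. All animals were C57BL/6 mice of 6 to 8 weeks, and the L4 to L6 ganglia of 10 mice were pooled in each ChIP sample, 24 hours after surgery. Laminectomy without axotomy (Lam, 50667 peaks, 2 samples of 10 mice) served as background, measured against Sham in the same way. Values of spinal dorsal column axotomy (DCA, 89647 peaks, 2 samples of 10 mice) are given beside single genes. The labels name no genetic modification. A peak present in 1 list and absent from the other is called gained or lost below. A gene start is called gained or lost by the presence of any peak within 1 kb of it. These words describe peak lists, since pooled lists leave no spread between replicates and no test between the surgeries.

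H3K9ac is laid down by histone acetyltransferases and removed by deacetylases, and it marks the starts of active genes and, more weakly, enhancers. The ganglia hold the cell bodies of sensory neurons together with satellite glia, Schwann cells, macrophages, vessels and connective tissue. After a cut of the peripheral axon, sensory neurons are known to switch on transcription factors such as ATF3 and Jun and growth-associated genes. The lists come from whole ganglia, so a change in the number of cells of a type and a change of the mark within each cell cannot be told apart.

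Promoter sequences of 5 genes that recur below show the kinds of gene start concerned. N6amt1, a methyltransferase subunit gene, had the strongest peak among the starts that gained H3K9ac. Dhh encodes desert hedgehog, a signal of Schwann cells. Calca encodes the neuropeptide CGRP and Trpv1 the heat and capsaicin receptor, both of nociceptors. Lman2l, a cargo receptor gene of the secretory pathway, had the strongest peak among the starts that lost H3K9ac, level with that of Tmem238. Each sequence is the 250 bases before the first transcribed base, from the RefSeq promoter table of GRCm38.p6, on the strand of the gene. They lie at chr16:87353935-87354184 (+), chr15:98898541-98898790 (-), chr7:114636358-114636607 (-), chr11:73233899-73234148 (+) and chr1:36445272-36445521 (-). Capitals mark CG dinucleotides, of which the sequences hold 4, 9, 4, 2 and 8 in this order.
N6amt1: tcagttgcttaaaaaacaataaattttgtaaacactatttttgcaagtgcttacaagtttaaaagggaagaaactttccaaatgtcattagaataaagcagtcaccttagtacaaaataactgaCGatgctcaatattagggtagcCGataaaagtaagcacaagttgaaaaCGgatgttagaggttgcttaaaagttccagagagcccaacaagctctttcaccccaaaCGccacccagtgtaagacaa
Dhh: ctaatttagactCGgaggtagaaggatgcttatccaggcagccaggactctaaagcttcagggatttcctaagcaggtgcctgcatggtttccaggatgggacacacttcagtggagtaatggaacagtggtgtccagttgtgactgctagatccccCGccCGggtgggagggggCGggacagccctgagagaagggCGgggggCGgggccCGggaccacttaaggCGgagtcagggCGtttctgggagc
Calca: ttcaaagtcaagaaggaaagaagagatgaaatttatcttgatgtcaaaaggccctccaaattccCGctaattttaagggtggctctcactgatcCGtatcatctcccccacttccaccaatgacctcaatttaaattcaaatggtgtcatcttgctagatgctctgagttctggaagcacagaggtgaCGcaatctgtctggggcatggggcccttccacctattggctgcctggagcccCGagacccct
Trpv1: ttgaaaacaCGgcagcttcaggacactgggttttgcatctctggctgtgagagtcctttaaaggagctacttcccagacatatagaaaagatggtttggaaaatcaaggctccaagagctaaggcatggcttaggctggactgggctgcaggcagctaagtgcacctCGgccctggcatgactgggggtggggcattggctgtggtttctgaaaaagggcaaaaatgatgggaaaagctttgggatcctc
Lman2l: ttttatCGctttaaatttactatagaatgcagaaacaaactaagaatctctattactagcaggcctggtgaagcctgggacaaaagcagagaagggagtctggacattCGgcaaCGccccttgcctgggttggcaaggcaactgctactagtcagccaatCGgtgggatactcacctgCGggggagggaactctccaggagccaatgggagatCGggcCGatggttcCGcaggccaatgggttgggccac

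The SNA list was the larger one, and its additional peaks were narrower and weaker than those it shared with Sham. Of the SNA peaks, 36918 (49.5%, 95% Wilson interval 49.1% to 49.8%) overlapped no Sham peak by 1 bp or more, and these are the SNA-only peaks. Of the Sham peaks, 11083 (22.0%, 21.7% to 22.4%) overlapped no SNA peak. Between the surgeries without axotomy, 20650 Lam peaks (40.8%) lacked a Sham peak and 21751 Sham peaks (43.2%) lacked a Lam peak. The intervals cover counting error only. The SNA-only share was above the Lam-only background and the Sham-only share below it. With lists of equal size the SNA-only share was 39.4%, under the 40.8% of Lam, so the order of SNA-only and Lam-only shares depended on list size. The share of Sham peaks without an SNA peak was then 34.2%, still below the 43.5% without a Lam peak.

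The share of peaks without a partner varied with strength. Within the strongest 10% of SNA peaks by the authors' −log10 p, 3.9% had no Sham peak, while the share reached 77.0% in the ninth of 10 equal steps. Lam peaks without a Sham peak made up 6.95% of the strongest step of their own list and 61.7% of the ninth. In the strongest step of each list the SNA share was below the Lam share, and from the third step on it was above. SNA-only peaks had a median width of 335 bp and a median −log10 p of 4.18, against 634 bp and 5.7 for SNA peaks shared with Sham. Peaks matched 1 to 1 between the lists, 26285 in number, had a median width of 613 bp in SNA and 482 bp in Sham, and 67.2% were wider in SNA. In the same measure 45.4% of 20922 matched peaks were wider in Lam than in Sham. In bases, 20.1 Mb were covered in both lists, which is 45.9% of the 43.7 Mb covered in SNA and 72.3% of the 27.8 Mb covered in Sham.

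**Figure D1:**
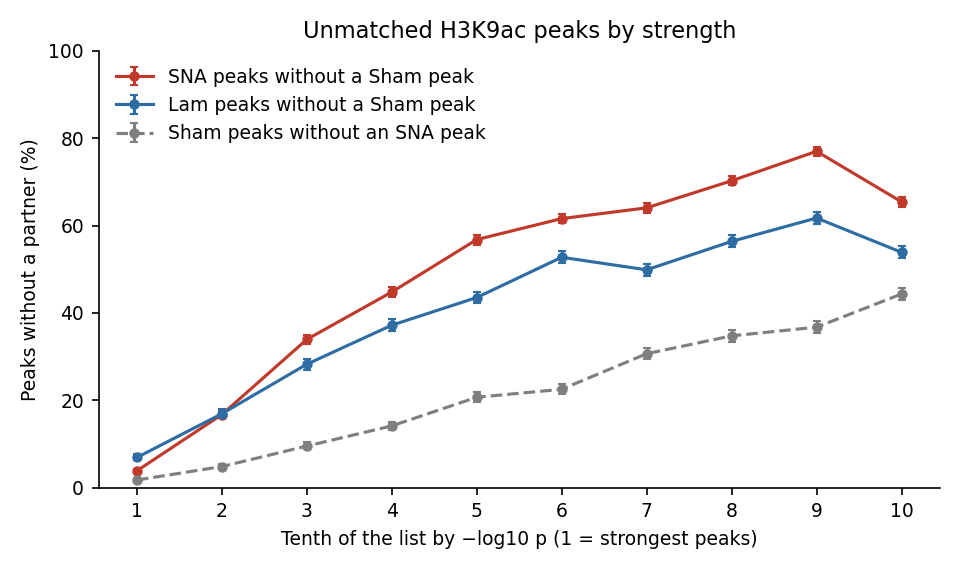
Share of H3K9ac peaks without a partner in the other list (y axis, percent) in 10 equal steps of each list from strongest to weakest by −log10 p (x axis). Points are shares, bars are 95% Wilson intervals (counting error only), and SNA runs from 3.9% in the strongest step to 77.0% in the ninth.

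The background level after the caller's scaling differed between the lists. The background level recovered from fold enrichment and −log10 p was 1.68 scaled reads at a peak in Sham, 2.08 in SNA and 3.04 in Lam. Before the caller's scaling the background was 5.33, 5.2 and 4.98 reads, which are close to each other. Reads and background scaled to the Sham level left 73640 SNA peaks, of which 49.4% had no Sham peak, against 49.5% in the list as deposited. This step can only drop peaks already called, so it cannot show what lists of equal depth would hold.

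Most SNA-only peaks lay within 10 kb of a Sham peak. Of the SNA-only peaks, 36.2% had a Sham peak within 1 kb and 77.8% within 10 kb, against 6.99% and 26.7% when the list was moved by 1 Mb. Lam-only peaks gave 38.1% and 73.6%. In both comparisons the peaks without a partner were thus near marked regions of Sham far more than after the shift.

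The places of the gained peaks were mostly inside genes and away from gene starts. Of the SNA-only peaks, 10.2% (9.94% to 10.6%) lay within 1 kb of the start of a protein-coding gene, 64.5% elsewhere in a gene and 25.2% between genes. Of SNA peaks shared with Sham 33.4% lay at a gene start. The share at gene starts was 18.9% of Sham-only peaks and 17.1% (16.6% to 17.7%) of Lam-only peaks. The intervals of SNA-only and Lam-only peaks did not overlap, though they carry no replicate error. At a −log10 q of 5 or more, which left 2137 Sham peaks, 53.7% of SNA-only peaks lay at a gene start. The table of genes gives no exons, so exons, introns and untranslated regions were not assigned.

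**Figure D2:**
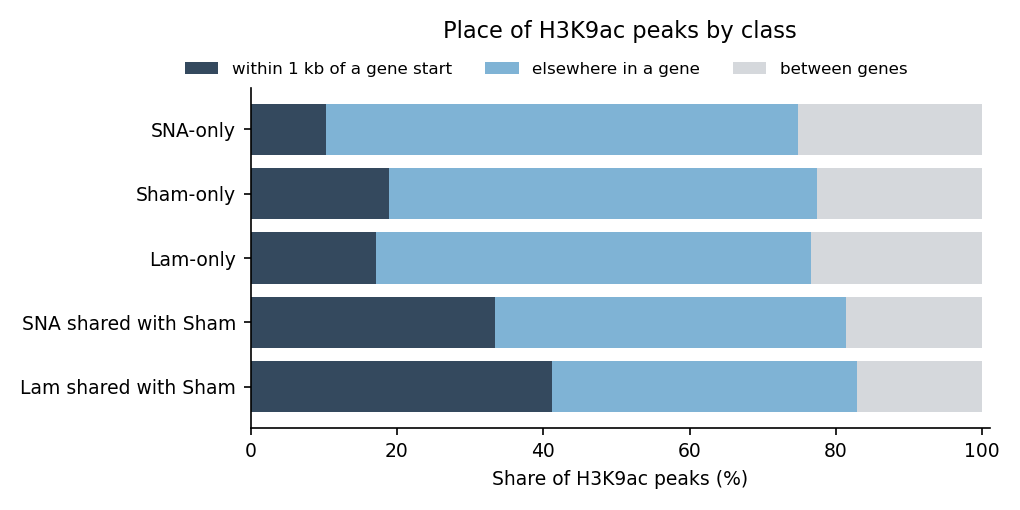
Place of H3K9ac peaks (x axis, percent of the class) for peaks found in 1 list and for shared peaks (y axis). Bars are stacked to 100%, and the part at gene starts is 10.2% for SNA-only, 18.9% for Sham-only, 17.1% for Lam-only and 33.4% for SNA peaks shared with Sham.

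Other chromatin readouts of the same surgery were present at a minority of the gained peaks in the full lists. An SNA ATAC peak, which marks DNA open to a transposase, overlapped 28.3% of SNA-only peaks (27.9% to 28.8%) and 59.5% of shared ones, against 8.82% of SNA-only peaks moved by 1 Mb. At a −log10 q of 5 or more the share of SNA-only peaks was 80.2%. At gene starts 59.6% of the SNA-only peaks overlapped one, and elsewhere 24.7%. Lam-only peaks overlapped a Lam ATAC peak in 29.3%. The ATAC list of Sham already held a peak at 24.0% of the SNA-only places. H3K27ac, a second acetylation mark of active promoters and enhancers, had an SNA peak at 42.7% and a Sham peak at 16.6% of SNA-only peaks. At peaks shared by SNA and Sham the same H3K27ac lists gave 79.9% and 49.0%, so they differed there as well. At Sham-only peaks 34.6% met an SNA H3K27ac peak and 14.6% a Sham one.

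At gene starts the numbers of gains and losses were close to the background between the control surgeries. A start counted as marked when a peak lay within 1 kb of it. Of 21883 protein-coding genes, 10961 were marked in Sham, 11256 in SNA and 11172 in Lam. H3K9ac was gained at 1136 starts (5.19%) and lost at 841 (3.84%) in SNA against Sham. In Lam against Sham it was gained at 1165 (5.32%) and lost at 954 (4.36%). Starts marked in SNA and in neither control numbered 473 (2.16%), and starts marked in both controls but not in SNA 518 (2.37%). Lists of equal size gave 758 gains and 1841 losses for SNA, and 1154 gains and 971 losses for Lam. A q of at most 0.05 gave 2007 SNA gains and 2042 Lam gains, and a −log10 q of at least 5 gave 3380 and 3596. The peaks at gained starts had a median −log10 p of 4.62 in the SNA list, where the median over all marked starts was 7.54. Of the gained starts 84.7% had an ATAC peak in Sham, and 28.9% had a Sham H3K9ac peak outside the window but within 5 kb.

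Starts that gained H3K9ac in SNA were poorer in CpG than those that gained it in Lam. CpG content was taken as the observed over expected ratio in the 300-base window of the promoter table, for the 17491 genes it lists, and a start was called CpG-rich above 0.6. Of the SNA gains 58.0% were CpG-rich (54.7% to 61.2%, 897 starts), of the Lam gains 75.3% (72.5% to 78.0%, 929 starts) and of all starts 50.8%. Of the losses 71.9% of 631 were CpG-rich in SNA and 53.0% of 725 in Lam. Starts marked in both SNA and Sham were CpG-rich in 78.5%. Among the starts gained over both controls the share was 36.0% (31.2% to 41.1%, 361 starts). In this window, which runs 50 bases past the start, Trpv1 has a ratio of 0.21, Calca 0.41, Dhh 0.44, Lman2l 0.64 and N6amt1 0.88. Over the 250 bases printed above the ratios are 0.13, 0.28, 0.43, 0.47 and 0.48, all below 0.6. In each of the 7 alternative settings computed for both, the share was lower for SNA gains than for Lam gains.

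Motif matches in the same windows were a description of the letters on either strand. The AP-1 motif TGACTCA, bound by Fos and Jun proteins, was found in 4.46% of SNA gains, 4.12% of SNA losses and 5.4% of all promoters of the table. The cAMP response element TGACGTCA was found in 1.67%, 2.85% and 2.54%. TATAAA was found in 10.7%, 7.45% and 14.8%, and the GC box GGGCGG in 62.4%, 73.8% and 49.2%. The shares of the AP-1 motif and the cAMP response element among the gains were below those of all promoters. Among Lam gains these shares were 3.12% and 1.615%, so the SNA gains were not below this background. Starts marked in both SNA and Sham had them in 4.4% and 4.01%, and starts marked in neither in 6.66% and 1.08%.

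The 15 gained starts with the strongest SNA peaks had −log10 p values from 11.8 to 15.92. The N6amt1 start carried an SNA peak at chr16:87354016-87354823 with a −log10 p of 15.92, and the nearest Sham peak lay 77.7 kb away. Its Lam peak had a −log10 p of 2.33 and its DCA peak 14.66, each in its own list. The start was thus marked in all lists but Sham. Dhh carried a broad SNA peak at chr15:98896813-98898903, which overlapped 2 Sham peaks, the nearest of them 1.05 kb from the start. Prrt1, Pknox2, Zfp446 and Srl also had a Sham peak less than 1.5 kb from the start. The strongest SNA start peak of each of them also overlapped at least 1 Sham peak. Like Dhh, they count as gained because no Sham peak reached the 1 kb window, and these SNA peaks are not SNA-only peaks. For Pknox2, Zfp446 and Srl either gene end served as the start. Cop1, a ubiquitin ligase gene, and Helb, a DNA helicase gene, lay 161 kb and 88.2 kb from the nearest Sham peak. Both also had Lam and DCA peaks at the start. Ccp110, a centriole protein gene, Ppcdc, an enzyme of coenzyme A synthesis, and Atp5g1, a subunit of the mitochondrial ATP synthase, were marked in Lam and DCA as well. Ormdl2 and Sarnp share 1 peak between their starts and are not independent. The serpin gene Serpinb6b and Zfp446 had no Lam peak at the start. The other genes of this set had one in each of SNA, Lam and DCA.

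Losses at gene starts had Sham peaks of −log10 p from 8.05 to 9.84 among the strongest 15. The Lman2l start had a Sham peak at chr1:36444840-36445223 with a −log10 p of 9.84, and the nearest SNA peak was 26.6 kb away. Lam and DCA peaks at the same place had values of 8.98 and 19.89. Zfp982, a zinc finger gene, had a Sham value of 9.32 with the nearest SNA peak 308.8 kb away, and values of 14.35 in Lam and 14.01 in DCA. Rasa2, a Ras GTPase-activating protein gene, Ube2v2, a ubiquitin-conjugating enzyme variant, and Dnajc21, a co-chaperone, lacked an SNA peak and had Lam and DCA peaks. Piezo2, the touch channel of mechanosensory neurons, lost its start peak (Sham 8.47), and an SNA peak lay 1.16 kb from the start, just outside the window. Ppargc1b and Gm9222 had no Lam peak either. All 15 had a DCA peak and an ATAC peak in SNA at the start.

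Peaks inside genes were more numerous in SNA, as was the list as a whole. Over all genes with 10 kb on either side, SNA had 1.41 times as many peaks as Sham and Lam 0.99 times. SNA had more peaks than Sham in 8520 genes (38.9%) and fewer in 2484 (11.4%). For Lam against Sham the counts were 5503 (25.1%) and 5023 (23.0%). The ratio of SNA to Sham was 1.28 for genes up to 10 kb and 1.71 for genes over 300 kb, and the ratio of Lam to Sham 0.93 and 1.14. Of the 1194 genes with 10 or more Sham peaks, 82.9% had more peaks in SNA and 29.2% more in Lam. With lists of equal size the ratio over all genes was 0.97 for SNA and 0.98 for Lam, so the excess inside genes did not exceed that of the list as a whole.

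**Figure D3:**
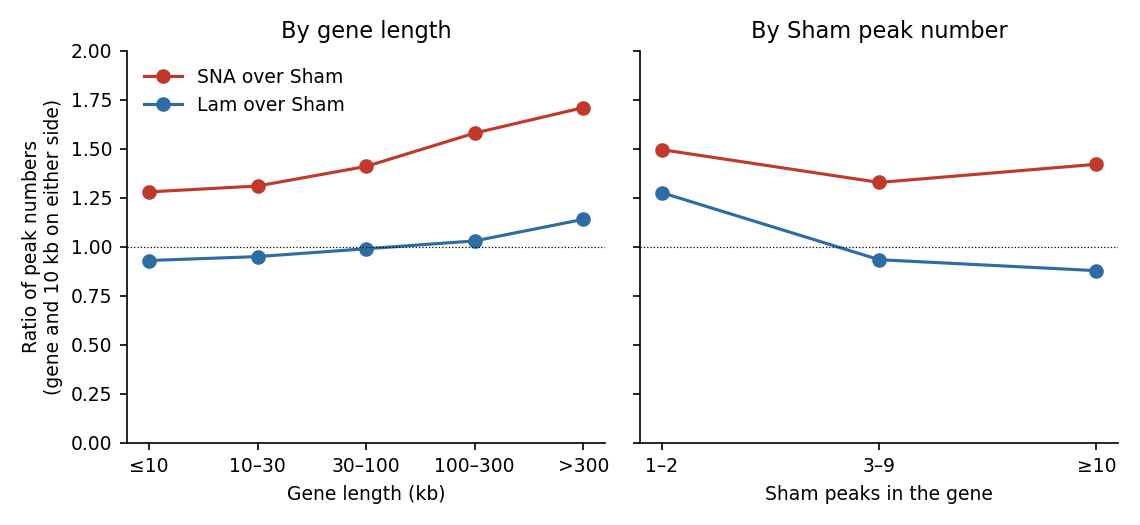
Number of H3K9ac peaks in genes and 10 kb on either side as a ratio to Sham (y axis), by gene length (left) and by the number of Sham peaks in the gene (right). SNA over Sham rises from 1.28 in genes up to 10 kb to 1.71 in genes over 300 kb, and Lam over Sham runs from 0.93 to 1.14.

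The genes with the largest gains in peak number were long, from 183.1 kb to 540.8 kb. Prkca, a protein kinase C gene, had 42 peaks in Sham against 96 in SNA, with 45 in Lam and 85 in DCA. Prkce, a second kinase of that family, had 62, 106, 50 and 118 in this order. Both kinase genes had more peaks after axotomy than in the control lists, but they were chosen by SNA minus Sham. Over all genes SNA and DCA also held more peaks (84802 and 99819) than Sham and Lam (60004 and 59236). The order is thus no trait of the kinase genes. Msi2, an RNA-binding protein gene, had 74, 126, 48 and 142 (Sham, SNA, Lam, DCA). Syn3, a synapsin of synaptic vesicles, had 72, 123, 69 and 115. Vps13d, a lipid transfer protein gene, had 37, 86, 47 and 84. Nfia, a transcription factor of glial development, had 57, 105, 80 and 112, so Lam was also above Sham there. Tgfbr3, a co-receptor for TGF-beta, had 41, 88, 53 and 93. Fyn, a Src-family kinase, had 37, 78, 29 and 74 while its listed starts were unmarked in both Sham and SNA. Rgl1 and Aopep completed this set with 40 and 41 additional peaks.

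The largest losses were small. Notch1, a receptor of cell fate signalling, had 39 peaks in Sham against 32 in SNA, with 19 in Lam and 27 in DCA. Cabin1, an inhibitor of calcineurin, had 20, 14, 12 and 16. Dlg5, a scaffold protein gene, had 13, 7, 7 and 15, and Kif5c, a neuronal kinesin, 9, 4, 3 and 8. These differences were at most 7 peaks. Mmrn2, an endothelial matrix gene, had 10, 5, 8 and 10. The stronger of its 2 SNA start peaks was a broad interval, chr14:34372515-34379459. Inka1 similarly had 8 peaks in Sham and 3 in SNA, where 1 SNA peak ran over chr9:107980408-107985826. In SNA a lower peak number thus stood beside a wide peak at these genes, but not in DCA. DCA peaks ran over chr14:34372811-34379463 at Mmrn2 and chr9:107980424-107986226 at Inka1. The genes had 10 and 9 peaks in DCA, no fewer than in Sham. When only peaks with a q of at most 0.05 were kept, Notch1, Cabin1, Dlg5, Tbc1d16, Fam102a and Kif5c had more peaks in SNA than in Sham.

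In intervals of 500 kb, SNA had more peaks than Sham in 2818 of 3736 (75.4%) and fewer in 312 (8.35%), and Lam had more in 49.1% and fewer in 32.2%. The largest gain was at chr5:107000001-107500000, which holds Tgfbr3 and Brdt, with 74 peaks in Sham against 144 in SNA, and 90 in Lam and 147 in DCA. Next came chr10:80500001-81000000 (78, 135, 58 and 146), a gene-dense interval with Dot1l, a histone methyltransferase, and Gadd45b, a stress response gene. The interval around Syn3 and Timp3, chr10:86000001-86500000, had 79, 136, 78 and 130. Parva and Tead1 lay in chr7:112500001-113000000 (78, 133, 80 and 142), and Clstn1 and Pik3cd in chr4:149500001-150000000 (64, 117, 47 and 136). In these 5 intervals, chosen by SNA minus Sham, the SNA number was closer to that of DCA than to that of Lam, and the same held over all genes (84802 peaks in SNA, 99819 in DCA and 59236 in Lam). The largest loss was 7 peaks, at chr19:41500001-42000000 around Slit1, an axon guidance gene, from 22 in Sham to 15 in SNA and 15 in Lam. The interval chr11:4500001-5000000 with Nefh and Nf2 went from 22 to 16, with 18 in Lam. The other 3 intervals of loss, around Dlg5, Ifrd1 and Kif5c, had 17, 14 and 13 peaks in Sham, 11, 10 and 9 in SNA and 10, 11 and 8 in Lam. Lam and SNA are set against the same Sham list, so these values are not independent. All 5 intervals had more peaks in SNA than in Sham at a q of at most 0.05, by 1 to 6 peaks, and at a −log10 q of 5 or more, by 1 to 4.

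Chromosome X stood apart from the autosomes in both comparisons with Sham. Its peaks numbered 276 in the Sham list and 536 in the SNA list, against 476 after laminectomy and 720 after dorsal column axotomy. The ratio of SNA to Sham was 1.94 on X and between 1.42 and 1.59 on the 19 autosomes. The ratio of Lam to Sham was 1.72 on X and between 0.93 and 1.16 on the autosomes. Of the 966 X-linked genes, 20.6% were marked at the start in Sham and 30.2% in SNA, against 27.7% in Lam and 38.0% in DCA. Gains were seen at 12.5% of X-linked starts in SNA and 10.7% in Lam, against 4.9% and 5.13% of autosomal starts. In the ATAC lists 33.2% of X-linked starts were open in Sham, 37.1% in SNA and 30.3% in Lam. The H3K27ac list had X at 0.632% of peaks in Sham and 1.02% in SNA, and the H3K9ac list at 0.548% and 0.718%. The labels used here do not give the sex of the mice in each pool, so a difference between the pools and a difference between the surgeries cannot be told apart on this chromosome. The part of this chromosome-wide difference in the gains of single X-linked genes was not tested, and such genes are named as X-linked below. Without X and Y there were 1013 gains and 813 losses at starts in SNA, and 1060 and 920 in Lam.

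**Figure D4:**
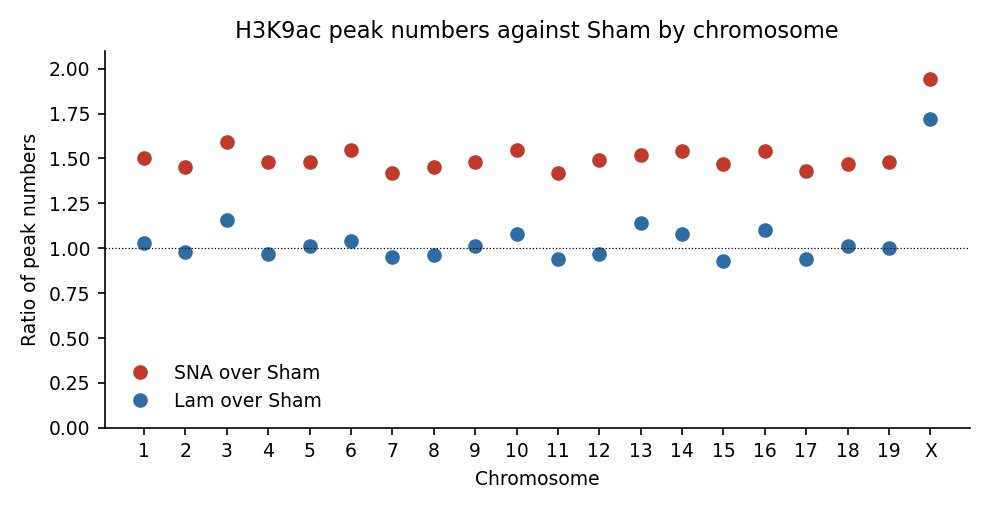
Ratio of the number of H3K9ac peaks to Sham (y axis) for each chromosome (x axis), in SNA and in Lam. Chromosome X lies at 1.94 and 1.72, and the autosomes lie between 1.42 and 1.59 in SNA and between 0.93 and 1.16 in Lam.

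The makeup of the mark was checked on defining genes of the cell types a ganglion holds. Of 30 sensory neuron genes, 4 were marked at the start in Sham (Runx1, P2rx3, Piezo2 and Tubb3), 6 in SNA and 5 in Lam. The neurofilament genes Nefh, Nefm and Nefl, the transcription factors Isl1 and Pou4f1, and the sodium channels Scn9a, Scn10a and Scn11a had no H3K9ac peak at the start or in the gene in these 3 lists. The ATAC list of Sham had a peak at 22 of the same 30 starts. Of 20 satellite glia and Schwann cell genes, 16 were marked in Sham, 18 in SNA and 17 in Lam, among them Sox10, Mbp, Fabp7 and Apoe. The potassium channel gene Kcnj10 of satellite glia and the cadherin gene Cdh19 gained a start peak, as did the connexin gene Gjb1 (X-linked), and the neural crest factor gene Foxd3 lost one. Kcnj10 and Cdh19 also had a Lam start peak, and Gjb1 did not. These 3 gains are 15.0% of the list, against 5.19% of all starts. Kcnj10 had 4 peaks over the gene in Sham, 18 in SNA and 6 in Lam. Macrophage genes were marked at 4, 4 and 3 of 20 starts, and endothelial genes, with a gain at Pecam1, at 5, 6 and 5 of 10. Fibroblast genes, with a gain at Dcn, were marked at 3, 4 and 5 of 10, lymphocyte genes at 0, 0 and 1 of 10, and silent loci at 1, 3 and 1 of 30. Defining glial genes thus carried the mark more than defining neuronal genes in all 3 lists.

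Neuronal genes that gained the mark were few. Trpv1 had 3 peaks within 1 kb of its starts in SNA and 2 in DCA, against 0 in both Sham and Lam. The nearest Sham peak lay 1.76 kb from a Trpv1 start and the nearest Lam peak 1.6 kb, both outside the window. ATAC had 1 peak at the Trpv1 starts after the sham operation and 0 after SNA. H3K27ac had no peak at the starts of Trpv1 or Calca after either surgery. Over the whole gene Trpv1 had 3, 11, 3 and 8 H3K9ac peaks (Sham, SNA, Lam, DCA). Its strongest SNA start peak (chr11:73234934-73235599) had a −log10 p of 4.93. Calca had a start peak in SNA (chr7:114635781-114636440, −log10 p 6.5) and in DCA (8.1) and none in Sham or Lam, with the nearest Sham peak 73.3 kb away. Uchl1, a neuronal ubiquitin hydrolase, had a start peak in SNA (3.86) and DCA (9.84) and none in the controls. These 3 genes make up 3 of 30, and the background of gains over both controls is 2.16% of all starts. In the silent list, 2 of 30 genes, Apoa2 and Fga, which are liver genes, were also gained over both controls. At a −log10 q of 5 or more there were 0 gains in the sensory neuron list and 0 in the silent list.

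Transcription factors known from nerve injury were mostly marked in every list. Of 30, 24 were marked in Sham, 23 in SNA and 25 in Lam, with 1 gain (Csrnp1) and 2 losses (Rest and Maff). These are 3.33% and 6.67%, against 5.19% and 3.84% of all starts, and Lam had 3 gains and 2 losses. Atf3 had 3 start peaks in Sham, 2 in SNA and 2 in Lam, with strongest −log10 p values of 6.66, 8.19 and 10.05 in the respective lists. Jun had 1, 2 and 1 start peaks. Fos had 3, 2 and 1, Stat3 2, 3 and 1, and Smad1 1, 1 and 2. Klf6 and Klf7 had 2 in each list, and Klf7 had 23 peaks over the gene in Sham, 36 in SNA and 31 in Lam. Sox11 had none in any list. Of these named factors, Atf3, Jun, Fos, Stat3, Smad1, Klf6 and Klf7 were thus marked at the start in Sham, SNA and Lam. Csrnp1 had 3 start peaks in SNA and 4 in Lam.

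Of 40 regeneration-associated effector genes, 16 were marked at the start in Sham, 17 in SNA and 17 in Lam. The chemokine gene Ccl2, the adhesion molecule gene L1cam (X-linked) and the semaphorin gene Sema6a gained the mark over both controls, with SNA −log10 p values of 3.5, 4.2 and 4.2. These genes are 7.5% of the list, against 5.19% of all starts gained over Sham and 2.16% gained over both controls. In Lam against Sham 3 other starts of this list, Basp1, Marcksl1 and Plaur, were gained and 2 were lost. These counts are the same as those of SNA against Sham. Gal, encoding the neuropeptide galanin, had a Sham peak (4.19) and none in SNA, Lam or DCA. Gch1, an enzyme of tetrahydrobiopterin synthesis, had a Sham peak (6.66) and none in SNA, with 4.48 in Lam. Sprr1a, Vip, Adcyap1 and Bdnf had no H3K9ac peak at the start or in the gene in any of the 4 lists. Gap43, a growth cone protein gene, had none in Sham, SNA or Lam and 2 in the gene, away from its start, in DCA. Npy and Cacna2d1 had a start peak in DCA and in no other list. Bdnf nevertheless had 6 ATAC peaks at its starts in both Sham and SNA, and Npy had 2.

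**Figure D5:**
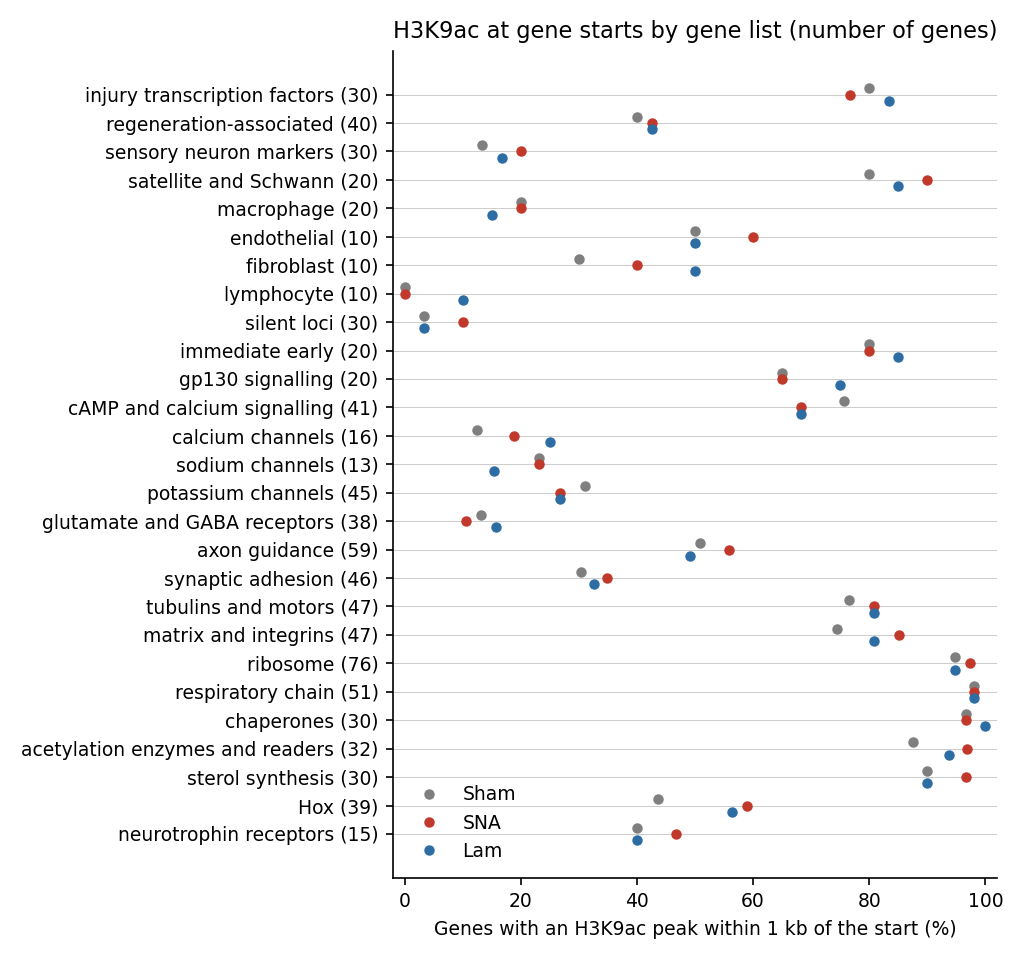
Share of the genes of each list with an H3K9ac peak within 1 kb of the start (x axis, percent) in Sham, SNA and Lam, with the number of genes in brackets (y axis). Sensory neuron markers lie at 4, 6 and 5 of 30 genes and satellite and Schwann genes at 16, 18 and 17 of 20 in Sham, SNA and Lam.

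Signalling lists showed no shared direction at the starts. Of 41 genes of cAMP and calcium signalling, which links injury to transcription, 2 were gained (Adcy3 and Camkk1) and 5 lost (the adenylyl cyclases Adcy1, Adcy6 and Adcy8, the CREB coactivator Crtc3 and the calcineurin subunit Ppp3cb). These are 4.88% and 12.2%, against 5.19% and 3.84% of all starts, and in Lam 3 were gained and 6 lost. Their genes held 1.58 times as many peaks in SNA as in Sham and 1.09 times in Lam, where all genes held 1.41 and 0.99 times as many. Of 20 genes of gp130 cytokine signalling, 13 were marked in both SNA and Sham with no gain or loss, and Lam had 2 gains and no loss. Jak1 had 4 peaks over the gene in Sham, 12 in SNA and 8 in Lam. Immediate early genes had 1 gain (Ier5) and 1 loss (Egr3) among 20, and in Lam 2 gains and 1 loss. Ier5 and Egr3 both had a Lam start peak. Neurotrophin and GDNF-family receptor genes had the highest ratio of SNA to Sham peaks of the lists with over 50 Sham peaks, at 1.96 for 15 genes, with 0.94 in Lam. At equal list sizes the ratio was 1.14. Sorcs2 supplied 25 peaks in Sham, 48 in SNA and 9 in Lam, and Sorcs1 7, 23 and 14, both sorting receptors that bind neurotrophins. Gfra2 and Gfra3, co-receptors for neurturin and artemin, gained a start peak, and Ngfr, the low-affinity neurotrophin receptor, lost one. Gfra2 also had a Lam start peak and Gfra3 did not. In Lam 1 start of this list was gained and 1 lost.

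Ion channel and transmitter receptor genes were sparsely marked. Potassium channels were marked at 14 of 45 starts in Sham, 12 in SNA and 12 in Lam. Kcna4 and Kcnk2 were gained over both controls, and the losses included Kcnd1 (X-linked), Kcnd3 and Kcnip1. Calcium channels had 1 gain in 16 (Cacnb3), and sodium channels 1 gain (Scn2b) in 13. Among 38 glutamate and GABA receptor genes, Gria3 (X-linked) was gained. In Lam 2 potassium channel starts were gained and 4 lost, the same counts as in SNA. Over all starts 5.19% were gained and 3.84% lost in SNA.

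Guidance, adhesion and matrix genes had more gains than losses, and so did all starts, with 5.19% gained and 3.84% lost. Of 59 guidance genes 7 were gained and 4 lost in SNA, and 8 were gained and 9 lost in Lam. The gains were Sema6a, Sema7a and Epha5, which lacked a Lam peak, with Plxna3 and Plxnb3 (both X-linked), Ntng1 and Ephb3. The losses were Ntng2, Ephb2, Efna5 and Efnb3, of which only Efnb3 had a Lam start peak. Ephb2 lost its start peak (Sham −log10 p 5.86) while its peaks over the gene went from 11 in Sham to 22 in SNA, with 2 in Lam. Of 47 matrix and integrin genes, 7 were gained and 2 lost, and in Lam 6 were gained and 3 lost. The gains included the collagens Col5a3, Col6a2 and Col12a1, the laminin Lama5, the proteoglycan Vcan and the integrin Itga8. The losses were Fn1 (fibronectin), which had no Lam start peak either, and Itgb5, which had 2. Col12a1 was the 1 gain without a Lam peak. Tubulin and motor genes had 4 gains (Kif4, X-linked, Kif17, Dynll1 and Map1b) and 2 losses (Kif5c and Kif21b) in 47, and synaptic adhesion genes 4 gains and 2 losses in 46. Lam had 4 gains and 2 losses in the first of these lists and 5 and 4 in the second.

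Hox genes, which keep the position code of spinal levels, had 6 gains and no loss among 39 (15.4% and 0%, against 5.19% and 3.84% of all starts). Hoxa4, Hoxb1, Hoxb3, Hoxb9, Hoxc5 and Hoxd3 were gained, and Lam had 5 gains and no loss. Hoxb1 and Hoxb3 had no Lam peak. Over the genes the list had 1.38 times as many peaks in SNA and 1.17 times in Lam. Hox genes lie beside each other, so 1 peak can count for several of them.

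Housekeeping lists were marked at nearly every start. Ribosomal protein genes were marked at 72 of 76 starts in Sham and 74 in SNA, with gains at Rpl36a, Rpl39 (both X-linked) and Rps9 and a loss at Rps25. Respiratory chain genes were marked at 50 of 51 in both, with a gain at Cox7b (X-linked) and a loss at Ndufab1. Chaperone genes had a gain at Hsp90aa1 and a loss at Dnajb5 among 30, and sterol synthesis genes gains at Fdft1 and Elovl6 among 30. Enzymes and readers of histone acetylation were gained at 3 of 32 starts, the deacetylases Hdac6 and Hdac8 (both X-linked) and Sirt7, and Lam also had 3 gains. The acetyltransferase genes Crebbp and Ep300 were marked in all 3 lists. Over all lists, with each gene counted once, 61 of 832 genes were gained in SNA, of which 12 were X-linked, though 22 of the 832 genes are X-linked. Over all genes 5.19% of starts and 12.5% of X-linked starts were gained. In Lam 63 were gained, of which 7 were X-linked.

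Zinc finger genes named Zfp, with 311 of 397 starts marked in Sham and 314 in SNA, had 22 gains and 19 losses, and 17 gains and 17 losses in Lam. The SNA counts are 5.54% and 4.79% of the family, close to the 5.19% and 3.84% of all starts. Olfactory receptor genes, which are silent outside the nose, had 1 of 1110 starts marked in SNA and 0 in Sham and Lam. Both families were chosen after values had been seen.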

How the data were processed

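H3K9ac peak lists of whole dorsal root ganglia were compared. The authors deposited 1 list per surgery, made from the pooled replicates of a condition per the series' design text. Each deposited peak has a fold enrichment, which is a linear ratio over background, and a −log10 p and −log10 q from the authors' caller. The deposited display score was not used. The build is mm10, per the submitters' processing notes, and the aligner and caller are not given in the sources used here. Fold, −log10 p and −log10 q were used within each list.

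Overlaps, gene counts and 95% Wilson intervals were computed in Python 3.11.15 with numpy 2.4.6, pandas 2.3.3 and scipy 1.17.1, tested on simulated data. Genes and starts came from RefSeq tables of GRCm38.p6. A listed start was used for 17491 of 21883 protein-coding genes and either gene end for the others. Named genes were the 15 gains and 15 losses at starts with the highest −log10 p, the 10 largest gains and losses in peak number, members of 27 gene lists that gained or lost, 20 fixed genes, and 5 intervals of 500 kb in each direction. The members and lists were chosen with earlier results of these data known. A whole number of reads matched the deposited −log10 p within 0.003 for at least 99.97% of peaks. Read totals are unknown. Some list members are not reported here. Alternatives changed the overlap, the limit on q, list size, depth, the gene window and the chromosomes used.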

Additional observations from a re-analysis of the deposited data

How the results depend on the processing

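No paired analysis was possible because each surgery has 1 list pooled from its replicates, and for the same reason no replicate could be left out. Shares are in the order SNA without Sham, Sham without SNA, Lam without Sham, Sham without Lam. They were 70.0%, 55.6%, 66.2% and 66.0% with a reciprocal overlap of 50%, and 31.5%, 12.01%, 25.2% and 27.7% with peaks within 1 kb also shared. They were 63.7%, 16.1%, 51.3% and 33.5% at a q of at most 0.05, 79.4%, 25.1%, 78.6% and 31.2% at a −log10 q of at least 5, and 46.4%, 27.5%, 36.2% and 39.0% for peaks overlapping an ATAC peak. Equal list sizes gave 39.4% of SNA and 34.2% of Sham peaks, and matched depth 22.8% of Sham peaks without SNA and 44.9% without Lam. Gains and losses at starts were 3380 and 434 in SNA and 3596 and 533 in Lam at a −log10 q of at least 5. Gains were 2007 and 2042 at a q of at most 0.05, and equal sizes gave 1841 losses in SNA. SNA-only peaks at starts made up 53.7% at a −log10 q of at least 5, 11.9% at a q of at most 0.05, 11.7% at equal sizes, 24.0% in a window of 5 kb, 11.2% with either gene end and 9.79% without X and Y. Those overlapping ATAC made up 80.2% at a −log10 q of at least 5, 32.1% at a q of at most 0.05 and 30.4% at equal sizes. CpG-rich gains made up 79.9% and 63.0% under the 2 limits on q and 52.8% in a window of 5 kb. The ratio of peaks in genes was 3.55 at a −log10 q of at least 5 and 0.97 at equal sizes. Leaving out X and Y, and the alternatives for CpG, peaks in genes, lists, single genes and intervals, were chosen after seeing the data.

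SNA minus Sham peak numbers changed sign for single genes and intervals. At a −log10 q of at least 5 they were 5 for Notch1, 2 for Cabin1, 3 for Adgrg1, 3 for Fam102a and 1 each for Inka1, Atf3 and Fos. The intervals on chromosomes 19, 11, 14, 12 and 2 then had 2, 4, 2, 2 and 1. At a q of at most 0.05 the values were 1 for Notch1, 4 for Cabin1, 2 for Dlg5, 3 for Tbc1d16, 5 for Fam102a, 3 for Kif5c and 1 for Atf3, and 1, 5, 3, 2 and 6 for the intervals. Equal sizes gave -1 for Stat3 and -4 for Smad1, and either gene end -1 for Serpinb6b at the start. The ratios of peaks in the 27 gene lists lay between 0.789 and 1.4 at equal sizes, and 18 were below 1. The limits on q left 28258 Sham peaks at 0.05 and 2137 at 5, and the cause of the changes was not tested.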
